A study of Mus musculus with 12 samples.

Results

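The genes described here are 10 regulators of chromosome segregation in mitosis: the kinases Aurka, Aurkb, Plk1, Bub1 and Ttk, the kinase-related checkpoint protein Bub1b, the checkpoint protein Mad2l1, the cyclin Ccnb1, the activator Cdc20 and the spindle factor Tpx2. They were chosen by name, and each was measured through the array probes that carry its name. The arrays held 15 such probes for 9 of the 10 genes, and none named for Aurkb. The 9 genes are among 20464 for which a value could be computed.

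Copy number was measured by array-based comparative genomic hybridization (aCGH), in which tumor DNA and reference DNA compete for the same probes and the ratio of their dyes is read along the genome. Each of 12 arrays carried Cy5-labelled DNA of 1 hepatocellular carcinoma and, from the same animal, Cy3-labelled DNA of liver away from the tumor. All mice, controls included, were Mdr2-KO on the FVB background. They lack the Mdr2 (Abcb4) phospholipid transporter of the bile canaliculus in every cell, develop chronic liver inflammation, and later form liver tumors. The 6 post-PHx tumors (4 males, 2 females) came from mice aged 9 months that had undergone 70% partial hepatectomy (PHx) at 3 or 6 months, and the 6 spontaneous tumors from mice left untreated, of which the 2 males were 14 and the 4 females 13 months old. Group and age therefore cannot be told apart. A tumor is named by its group, its number and the sex of the mouse, as in PHx4M or Spon5F, and is 1 replicate.

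Entry into mitosis is driven by the kinase Cdk1 bound to cyclin B, with Plk1 and the Aurora kinases acting on centrosomes, spindle and chromosomes. The spindle checkpoint holds cells in metaphase until every kinetochore is attached: Ttk (Mps1) starts the signal, Bub1 relays it, and Mad2l1 and Bub1b hold back Cdc20. Once freed, Cdc20 activates the anaphase-promoting complex, which marks cyclin B and securin for destruction. These genes are transcribed in proliferating cells from the G2 phase on and are nearly silent in resting hepatocytes. A copy number ratio says nothing about that transcription.

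Many genes of this set, but not all, share short promoter elements, and the sequences shown are those of members picked for holding them. In RefSeq (build GRCm38.p6), 8 of the 10 genes had an entry among promoters that span 250 bases before to 50 bases after the start. For the core of the cell cycle genes homology region only the word TTTGAA was searched, on both strands, and no variant of it. TTTGAA stood in 5 of the 8 (Aurka, Plk1, Bub1b, Ttk and Cdc20), beside 17.9% of all 32851 promoters of that length. The CCAAT box, bound by NF-Y and searched as CCAAT on both strands, stood in 7 of the 8 (all but Mad2l1), beside 37.4% of all promoters. Both words stood in 5 of the 8, beside 6.95% of all promoters. A match is a description of the letters and no evidence of binding. The last 170 bases of the 5 promoters with both words follow, 5′ to 3′ on the gene's strand, with every TTTGAA or CCAAT word, in either orientation, in capitals. They lie at chr2:172370521-172370690 (minus strand, Aurka), chr7:122159315-122159484 (plus strand, Plk1), chr2:118598091-118598260 (plus strand, Bub1b), chr9:83834569-83834738 (plus strand, Ttk) and chr4:118437294-118437463 (minus strand, Cdc20) of GRCm38.p6. The TTTGAA word began 32 bases after the start in Aurka, 30 in Plk1, 40 in Bub1b and 7 in Ttk, and 18 bases before it in Cdc20.
Aurka: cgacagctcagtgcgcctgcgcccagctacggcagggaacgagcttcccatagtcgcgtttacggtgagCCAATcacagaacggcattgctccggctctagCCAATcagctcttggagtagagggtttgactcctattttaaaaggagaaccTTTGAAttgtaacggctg
Plk1: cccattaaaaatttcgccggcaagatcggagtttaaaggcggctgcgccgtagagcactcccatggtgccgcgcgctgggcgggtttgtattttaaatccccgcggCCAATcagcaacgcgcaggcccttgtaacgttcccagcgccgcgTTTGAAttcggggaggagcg
Bub1b: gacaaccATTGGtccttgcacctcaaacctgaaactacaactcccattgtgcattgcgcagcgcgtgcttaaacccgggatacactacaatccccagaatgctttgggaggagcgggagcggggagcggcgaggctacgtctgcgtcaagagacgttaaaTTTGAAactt
Ttk: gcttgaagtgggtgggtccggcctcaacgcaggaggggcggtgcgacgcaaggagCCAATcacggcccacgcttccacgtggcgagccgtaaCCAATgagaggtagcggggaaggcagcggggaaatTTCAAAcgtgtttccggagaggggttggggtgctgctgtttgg
Cdc20: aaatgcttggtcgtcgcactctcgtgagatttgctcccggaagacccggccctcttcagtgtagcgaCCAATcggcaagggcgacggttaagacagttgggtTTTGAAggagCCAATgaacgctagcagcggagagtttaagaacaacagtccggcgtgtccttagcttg

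The files place the probes on an older build, NCBI36 (mm8), and all coordinates from here on are of that build. Aurka had its 2 probes at chr2:172047573-172051082, Tpx2 its 2 at chr2:152556875-152575351, Bub1 its 2 at chr2:127500443-127508016 and Bub1b its 2 at chr2:118312526-118317527, so that 4 of the 9 measured genes lie on chromosome 2 within 53.7 Mb of each other. Plk1 had 2 probes at chr7:121952001-121956641 and Ttk 2 at chr9:83652753-83668787. Ccnb1 had 1 probe at chr13:101882244-101882303, Mad2l1 1 at chr6:66469542-66469601 and Cdc20 1 at chr4:117932329-117932388. Whether a probe lies in an exon or an intron was not determined, since no annotation of mm8 was used here.

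A single probe is noisy: the spread between neighbouring probes was 0.15 to 0.26 on the log2 scale over the 12 arrays. Each gene was therefore given the mean log2 ratio, tumor over own liver, of a window of its own probes and 10 probes on each side, after each array had been centred on its autosomal median. The windows spanned 322 kb (Tpx2) to 2394 kb (Ttk) and held 20 to 22 measured probes, and the standard error of a window mean was 0.025 to 0.15 (median 0.042). An extra copy in every cell of a diploid tissue would give a log2 ratio of 0.58. A change in a share of the cells and a smaller change in all of them cannot be told apart in these bulk samples. A gene was called amplified or deleted in a tumor when all its probes lay in called pieces, found by an error-weighted interval score, whose mean log2 ratio was at least 0.4 or at most -0.4 (1.32-fold or 0.758-fold). A piece can be broken into several runs by other pieces nested in it, and the limit was set on the mean of the whole piece, so that 10 of the 325 called regions had a mean of their own nearer to 0 than 0.4. Both noise and the detection of probes differed between arrays: 97.6% to 99.7% of spots were well above background in both channels.

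Over 108 pairs of gene and tumor, copy number at these genes was near that of the liver in most. Among the 54 post-PHx pairs 48 lay within 0.2 of 0 (88.9%, beside 95.3% of the pairs of all genes), and among the 54 spontaneous pairs 44 did (81.5%, beside 83.0%). Of the 16 pairs beyond that limit 10 were on chromosome 2. Post-PHx tumors had 2 pairs in an amplified region, Aurka and Tpx2 in PHx4M, and spontaneous tumors 1, Tpx2 in Spon1M. That is 2 of 54 and 1 of 54, beside 2.02% and 1.46% of the pairs of all genes, so the counts are too small to set the members apart. No pair was in a deleted region, beside 0.00163% of the pairs of all genes in post-PHx tumors and 1.78% in spontaneous tumors. The last share was 1.85% without Spon1M, Spon2M and Spon3F, the arrays on which the caller found the most regions among shuffled probes. All of that 1.85% came from Spon5F, with 5.55% of genes deleted, while Spon4F and Spon6F had 0%. Without the same arrays the amplified share of all genes in spontaneous tumors was 0.212% in place of 1.46%. The tumors that held the amplified pairs had 4.58% (PHx4M) and 7.69% (Spon1M) of all genes amplified. Without PHx4M the count of amplified pairs was 1 in place of 3.

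**Figure D1:**
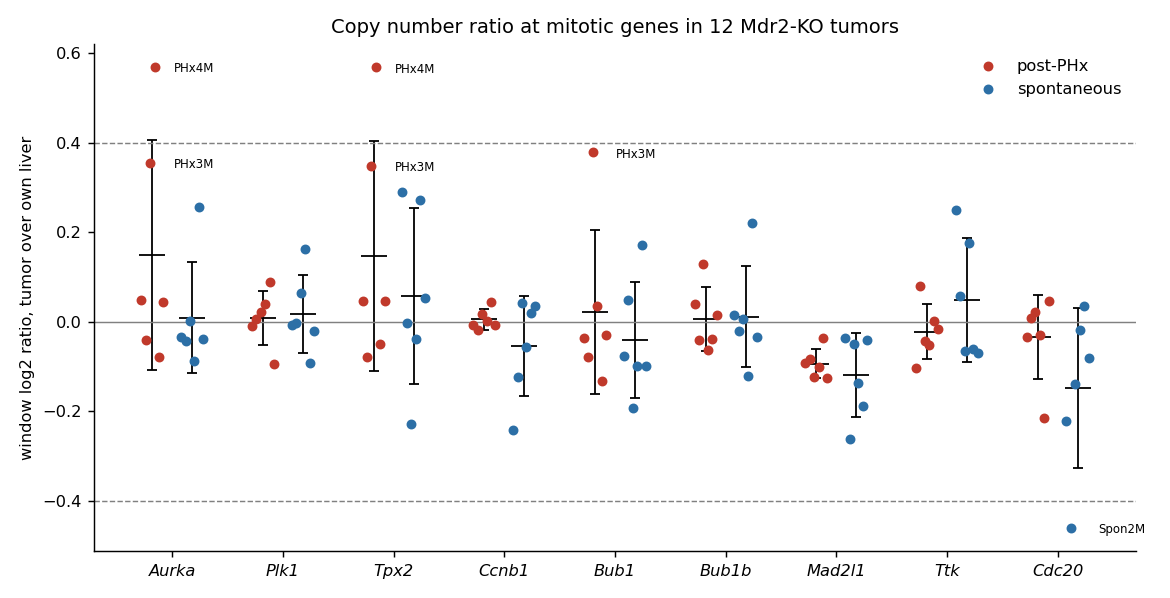
Window log2 ratio (tumor over own liver) of each gene in each tumor; points are tumors, horizontal bars and whiskers are the group mean and SD (n = 6), and dashed lines stand at 0.4 and -0.4. Values beyond 0.33 are named: Aurka and Tpx2 stand at 0.57 in PHx4M and near 0.35 in PHx3M, Bub1 at 0.38 in PHx3M, and Cdc20 at -0.46 in Spon2M.

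Aurka, the Aurora kinase of centrosomes and spindle poles, had the highest window of all members, at 0.57 in PHx4M, which is 1.48-fold. In post-PHx tumors its window log2 ratio was -0.08 at the lowest, 0.05 at the median and 0.57 at the highest. In spontaneous tumors it was -0.09, -0.04 and 0.26. PHx4M and PHx3M (0.35) stood above the other post-PHx tumors and above every spontaneous tumor, while the remaining 4 lay within the spontaneous range. The 2 probes of the gene itself read 0.31 and 0.60 in PHx4M and 0.26 and 0.19 in PHx3M. All 21 measured probes of the window were above 0 in PHx4M, and all 20 in PHx3M.

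Tpx2, the spindle assembly factor that binds and activates Aurora A, lies 19.5 Mb from Aurka and had almost the same post-PHx values. Its window log2 ratio was -0.08, 0.05 and 0.57 (lowest, median, highest) in post-PHx tumors, with PHx4M at 0.57 and PHx3M at 0.35. In spontaneous tumors it was -0.23, 0.02 and 0.29, the widest spontaneous range of the chromosome 2 genes. Spon1M (0.29) and Spon5F (0.27) stood above 0, with 19 of 22 probes positive in each. The lowest value, in Spon3F, came from a window with an SD of 0.54 between probes, 9 of which were above 0.

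Bub1, the checkpoint kinase that recruits other checkpoint proteins to the kinetochore, lies between Bub1b and Tpx2. Its window was -0.13, -0.03 and 0.38 in post-PHx tumors and -0.19, -0.09 and 0.17 in spontaneous tumors. The spontaneous minimum was that of Spon3F, whose window had an SD of 0.69 between probes, with 11 of 22 above 0. Only PHx3M, at 0.38, was above the spontaneous range, and all 22 probes of its window were positive there. In PHx4M, where Aurka and Tpx2 were amplified, the Bub1 window was 0.04. Bub1b, which encodes BubR1, an inhibitor of Cdc20, lies 9.18 Mb before Bub1 and read -0.06 in PHx4M and 0.13 in PHx3M, where the mean of its own probes was -0.03. Its post-PHx window values were -0.06, -0.01 and 0.13 and its spontaneous ones -0.12, -0.01 and 0.22, with Spon5F the highest.

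The boundaries on chromosome 2 separated these genes. In PHx4M a called stretch of 886 probes ran from chr2:142819528-181797594, to the last probe of the chromosome, with a mean of 0.63 (1.54-fold). It held Tpx2, 9.74 Mb inside its edge, and Aurka, and it left out Bub1, 15.3 Mb before the edge. A separate called region of 81 probes at chr2:3104269-6608791 had a mean of 0.48 and held no member. With a filter of 0.25, PHx4M had 2 more gained stretches without a member, at chr2:89779511-94231629 (0.32) and chr2:111420399-113888948 (0.40). In PHx3M a stretch of 1168 probes from chr2:126270358-181797594 had a mean of 0.40 (1.32-fold) and began at Slc27a2, 1.23 Mb before Bub1 and 7.96 Mb beyond Bub1b, so that it held Bub1, Tpx2 and Aurka. This stretch sits at the threshold. With the main settings its pieces averaged 0.398 and its 3 genes were not called. They were called under 5 of the 16 settings of the region call, which gave 5 post-PHx pairs in place of 2 (mode centring, removal of dim probes, a score threshold of 10, a filter of 0.25, and nested pieces of at least 2 probes).

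In Spon1M the gained stretch was bounded on both sides. It ran over 596 probes from chr2:144881216-167392128 with a mean of 0.39 (1.31-fold), and the piece to which Tpx2 belonged averaged 0.41. The unbroken run of 85 probes that held Tpx2 averaged 0.38, below the limit, so that the only amplified pair of a spontaneous tumor rests on the mean being taken over the whole piece. The stretch ended 4.66 Mb before Aurka, whose window read -0.04 in that tumor. Tpx2 was called there under 13 of the 16 settings and not with a filter of 0.6, with the window mean in place of a region, or with the filter on the mean of each unbroken run. Aurka and Tpx2 were called in PHx4M under all 16. In Spon5F no member was called, but the windows of all 4 chromosome 2 members read above 0, from 0.17 (Bub1) to 0.27 (Tpx2), beside a chromosome median of 0.19. The genes' own probes averaged -0.02 (Bub1), 0.02 (Aurka), 0.05 (Bub1b) and 0.42 (Tpx2) there. A deleted stretch of 53 probes in that tumor, at chr2:31261370-32419329 (-0.45), held no member. In the other 8 tumors the chromosome 2 median lay between -0.11 and 0.00, and the windows of these 4 genes between -0.23 (Tpx2 in Spon3F) and 0.05.

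**Figure D2:**
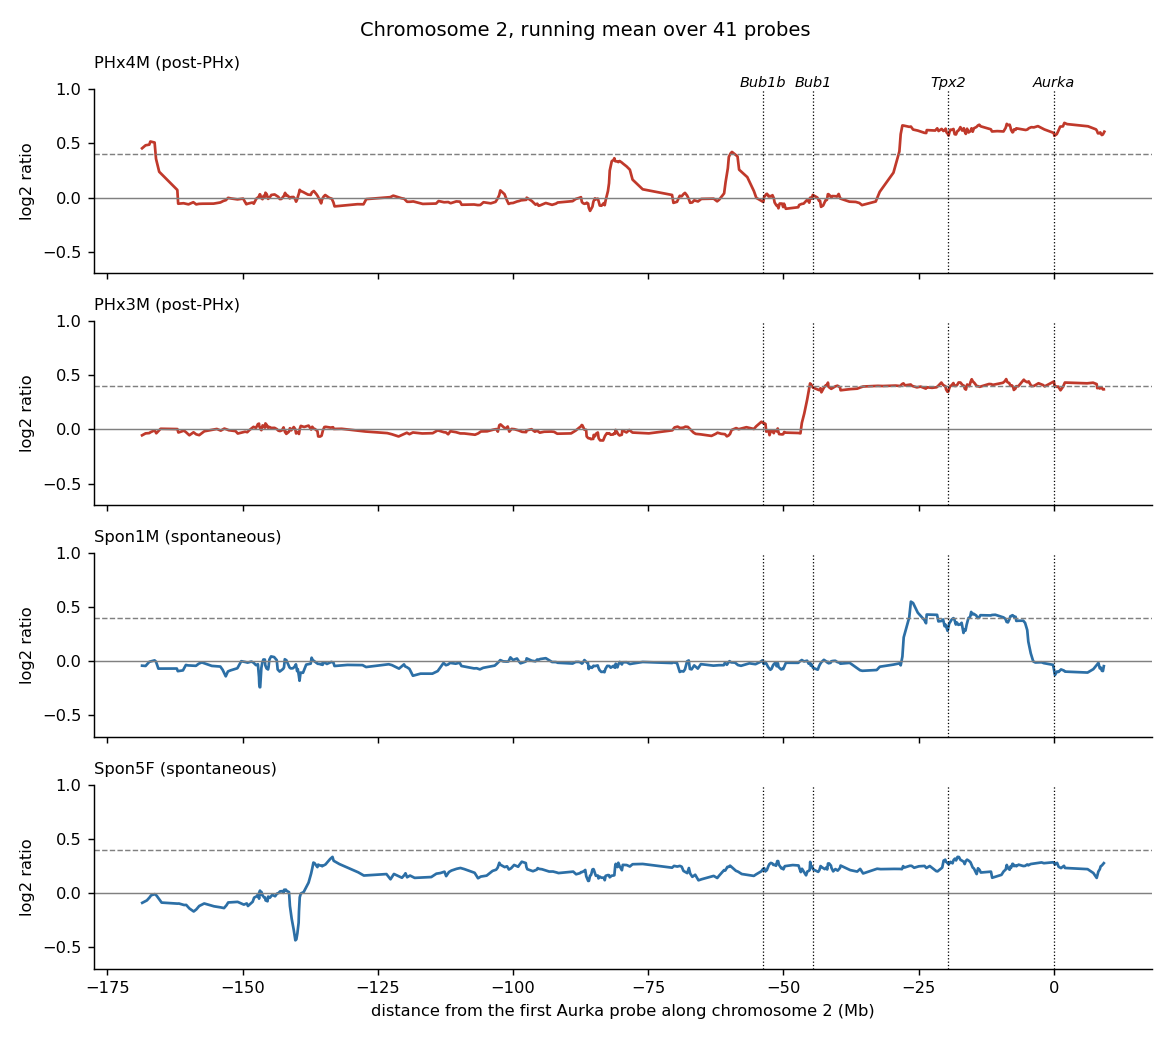
Log2 ratio along chromosome 2 (running mean over 41 probes) in 4 tumors, against the distance in Mb from the first Aurka probe; dotted lines mark the 4 genes, the dashed line 0.4. Of the gains that hold a member, that of PHx3M begins just before Bub1, those of PHx4M and Spon1M begin between Bub1 and Tpx2, and that of Spon1M ends before Aurka; PHx4M has smaller gains before Bub1b, and Spon5F is raised along most of the chromosome.

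Plk1, the Polo-like kinase of mitotic entry, centrosome maturation and cytokinesis, stayed close to the liver level. Its window was -0.10, 0.01 and 0.09 in post-PHx tumors and -0.09, -0.01 and 0.16 in spontaneous tumors, and the groups overlapped. Spon4F gave the highest value, beside a chromosome 7 median of 0.14 in that tumor. The 2 Plk1 probes differed: the second read above 0 in 12 of 12 tumors (0.01 to 0.32), the first in 3 (0.08 in Spon4F, the highest).

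Ccnb1, the B-type cyclin that activates Cdk1, had the narrowest post-PHx range of the members, from -0.02 to 0.04 (median 0.00). In spontaneous tumors its window was -0.24 at the lowest, -0.02 at the median and 0.04 at the highest. Spon1M was lowest, with a chromosome 13 median of -0.24 in the same tumor, and only 1 of its 21 window probes was above 0. That 1 was the single probe of Ccnb1 itself, which read 0.05 there and was above 0 in 11 of 12 tumors. With a filter of 0.25 in place of 0.4, Ccnb1 in Spon1M lay in a deleted stretch of 346 probes with a mean of -0.29.

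Mad2l1, which binds Cdc20 in the mitotic checkpoint complex, read below 0 in 12 of 12 tumors. Its window was -0.13, -0.10 and -0.04 in post-PHx tumors and -0.26, -0.09 and -0.04 in spontaneous tumors. A window below 0 in every tumor was found for 1.17% of all genes. The values were small, with a mean of -0.11 (SD 0.07, n = 12), and were lower than the median of chromosome 6 in 12 of 12 tumors. The single probe of Mad2l1 was above 0 in 4 tumors. Against 0, the limma fit gave adjusted p = 0.0812 in spontaneous and 0.549 in post-PHx tumors.

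Ttk, the kinase that starts the checkpoint signal, was highest in Spon1M (0.25) and Spon4F (0.18). Its window was -0.10, -0.03 and 0.08 in post-PHx tumors and -0.07, -0.00 and 0.25 in spontaneous tumors. Chromosome 9 as a whole had a median of 0.28 in Spon1M and 0.11 in Spon4F. Cdc20, the activator of the anaphase-promoting complex that the checkpoint holds back, had the lowest window of all members, -0.46 in Spon2M (0.727-fold), with none of its 21 probes above 0. In post-PHx tumors it read -0.22, -0.01 and 0.05, and in spontaneous tumors -0.46, -0.11 and 0.04.

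The low Cdc20 values were shared with chromosome 4, whose median was -0.38 in Spon2M, -0.23 in PHx5M (Cdc20 window -0.22) and -0.21 in Spon1M (Cdc20 window -0.22). In Spon2M, 2.65% of all gene windows were at -0.4 or lower. Cdc20 was not in a called deleted region there: with a filter of 0.25 the loss ran along the whole chromosome, over 2498 probes, with a mean of -0.34. The probe of Cdc20 itself read -0.02 in Spon2M and 0.35 in Spon3F, where its flanking probes had a mean 0.51 lower, the largest gap between a gene's own probes and its flanks. With its own probe alone the group difference for Cdc20 changed sign, to -0.01.

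Values away from 0 followed the chromosome only in part. Of the 108 pairs, most of which were near 0, 93 lay within 0.1 of the median of their chromosome in the same tumor. Of the 16 pairs at 0.2 or more from 0, 9 were within 0.1 of it, among them Cdc20 in PHx5M, Spon1M and Spon2M, Ccnb1 and Ttk in Spon1M, and Mad2l1 in Spon2M. The other 7 were at 0.2 or more from it: Aurka and Tpx2 in PHx4M, Aurka, Tpx2 and Bub1 in PHx3M, and Tpx2 in Spon1M and in Spon3F. Apart from the last, these were the partial gains of chromosome 2.

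**Figure D3:**
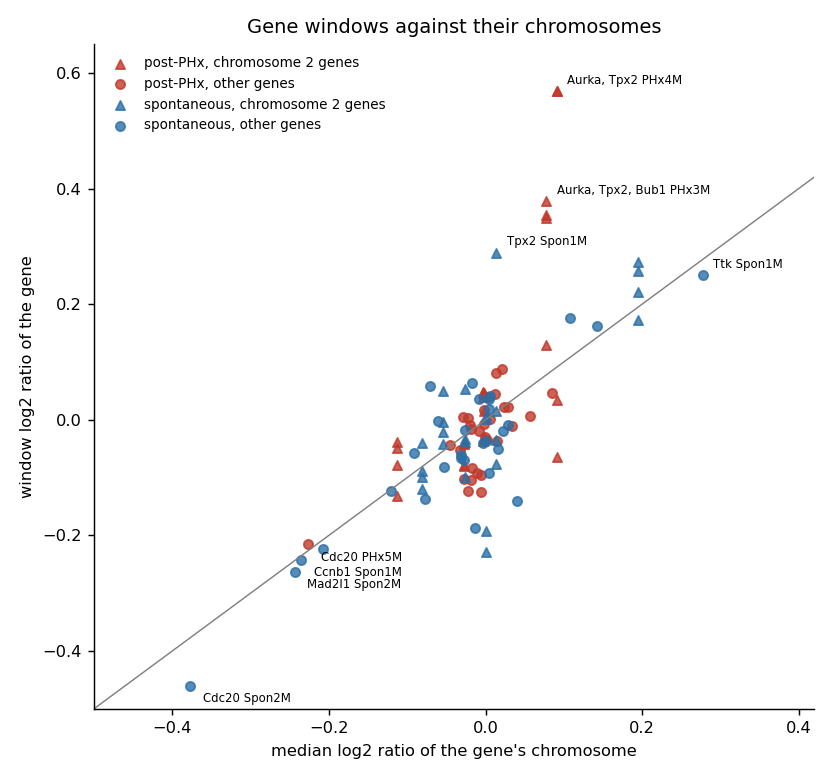
Window log2 ratio of each gene in each tumor (108 points) against the median log2 ratio of the gene's chromosome in that tumor, with the line of equality; triangles are genes on chromosome 2. Points far above the line are Aurka and Tpx2 in PHx4M, Aurka, Tpx2 and Bub1 in PHx3M and Tpx2 in Spon1M, whereas the lowest values of Cdc20 (Spon2M), Mad2l1 (Spon2M) and Ccnb1 (Spon1M) lie within 0.1 of it.

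Aurkb, the Aurora kinase of the chromosomal passenger complex, could be bracketed only by its neighbours. In the gene order of RefSeq the nearest genes with array probes are Ctc1, listed under an older name, and Aloxe3, which leave a gap of 102 kb on chromosome 11 between their probes. The mean of 10 probes on each side of this gap was 0.01 to 0.12 in post-PHx tumors and -0.27 to 0.14 in spontaneous tumors. Spon3F gave the lowest value, with an SD of 0.52 between its 20 probes, and the other 11 tumors read between -0.01 and 0.14. These are values of the neighbourhood and not of Aurkb, and were chosen after the gene was found to have no probe.

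The comparison of post-PHx with spontaneous tumors asked whether hepatectomy was associated with another copy number of these genes. No member passed the test, and neither did any other gene: the limma fit over all 20464 genes called 0% at an adjusted p under 0.05 (Benjamini-Hochberg). Without adjustment 1304 genes and no member had p under 0.05, and the methods' t-test gave 1183 genes before and 0 after adjustment. The largest member differences were those of Aurka and Cdc20. Aurka was 0.15 ± 0.26 in post-PHx and 0.01 ± 0.12 in spontaneous tumors (SD, n = 6 each), a difference of 0.14 (SE 0.11, 95% interval -0.09 to 0.37, limma adjusted p = 0.979, exact permutation p = 0.221, two-sided). Cdc20 was -0.03 ± 0.09 and -0.15 ± 0.18, a difference of 0.11 (SE 0.08, 95% interval -0.05 to 0.28, limma adjusted p = 0.979, exact permutation p = 0.201).

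For Tpx2 the difference was 0.09 (95% interval -0.17 to 0.35), for Bub1 0.06 (-0.12 to 0.25) and for Ccnb1 0.06 (-0.05 to 0.16). For Mad2l1 it was 0.02 (-0.07 to 0.12), for Plk1 -0.01 (-0.11 to 0.09), for Bub1b -0.00 (-0.12 to 0.11) and for Ttk -0.07 (-0.20 to 0.06). The limma adjusted p of all 9 members lay at 0.979 or above. The intervals of Plk1, Bub1b and Mad2l1 reached no further than -0.12 and 0.12, while those of Aurka and Tpx2 reach 1.29-fold and 1.27-fold higher in post-PHx tumors. The median difference was 0.06 over the 9 members and 0.01 over all genes. The ranges of the groups overlapped for every member, and failed to overlap for 0.298% of all genes.

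Only 1 of the 3 slides held both groups, and PHx3M and PHx4M stood on a slide of post-PHx tumors alone. On the shared slide (PHx5M and PHx6F against Spon5F and Spon6F) the difference had the opposite sign for 6 members that had been higher or lower over all tumors by more than 0.05: Aurka (-0.13), Tpx2 (-0.16), Bub1 (-0.12), Cdc20 (-0.06), Ttk (0.06) and Ccnb1 (-0.01). The fit with slide as a block rests on that slide and gave the same values and called no gene. The part of slide in the differences was not tested. Single tumors also carried much of the differences. Without PHx4M the Aurka difference was 0.06 and that of Tpx2 0.0052. The Tpx2 difference was 0.05 without PHx3M and 0.03 without Spon3F. Without PHx3M the Bub1 difference was -0.01, without Spon2M that of Cdc20 was 0.05, and without Spon1M that of Ccnb1 was 0.02.

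**Figure D4:**
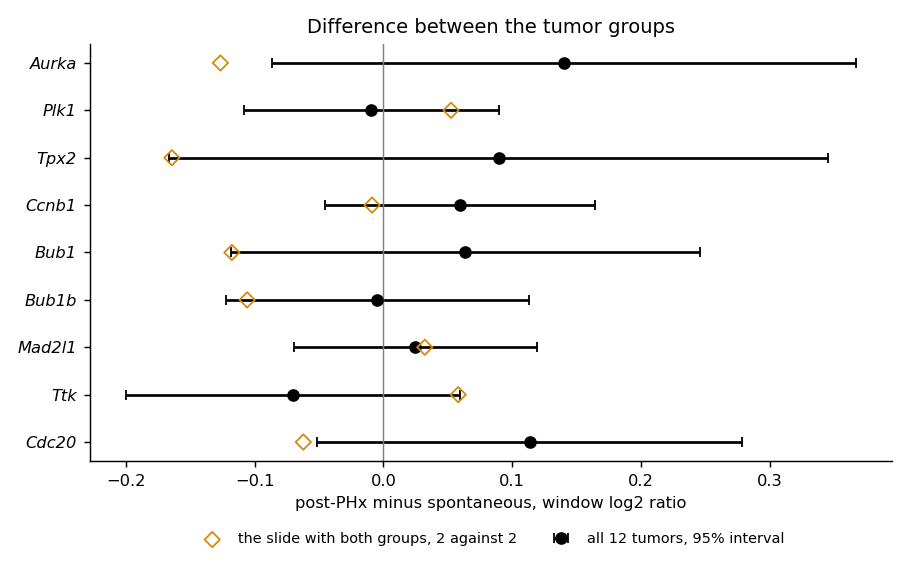
Difference of the group means (post-PHx minus spontaneous) of the window log2 ratio; filled points and bars are the limma estimate and its 95% interval over all 12 tumors, open diamonds the difference on the slide that held both groups (2 tumors against 2). Every interval includes 0, and for Aurka, Tpx2, Bub1, Cdc20, Ttk, Ccnb1 and Plk1 the diamond lies on the other side of 0 from the point.

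Against 0, that is tumor against own liver, no member passed the test in either group, beside 0% of all genes in post-PHx and 0% in spontaneous tumors (limma, Benjamini-Hochberg). Without adjustment 1410 genes had p under 0.05 in post-PHx and 3385 in spontaneous tumors. Mad2l1 in post-PHx and Mad2l1 and Cdc20 in spontaneous tumors were among them. In spontaneous tumors Cdc20 passed with sex as a covariate (-0.18, limma adjusted p = 0.0379) and Mad2l1 after normexp background correction (-0.16, limma adjusted p = 0.0336). Of all 20464 genes, 1190 passed with sex as a covariate and 797 after normexp in these tumors. With its own probe alone the spontaneous mean of Cdc20 was 0.04, on the other side of 0. Over the remaining alternatives the limma adjusted p of these 2 members stayed above 0.05.

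Other genes of mitosis were read from a list of 67 kinases, cyclins, phosphatases, passenger, checkpoint and kinetochore proteins, subunits and partners of the anaphase-promoting complex, and spindle factors, of which 59 had a value. Of these, 12 were in an amplified region in at least 1 tumor, 6 in a deleted region, and 41 in neither. Amplified pairs made up 2.26% of the list in post-PHx and 1.69% in spontaneous tumors, beside the 2.02% and 1.46% of all genes given above, and deleted pairs 0% and 1.69%, beside 0.00163% and 1.78%. None passed the test between groups, and the median difference was 0.03 over the list and 0.01 over all genes. Of the 8 list genes on chromosome 2, none was called in any tumor. All 8 lie between chr2:22946988 and chr2:130879007, outside the called stretches of PHx4M, so none could be called there. Their highest window was 0.38 in PHx3M, 0.32 in PHx4M and 0.31 in Spon5F.

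The list genes called in more than 1 tumor were Mad2l1bp, the p31comet protein that takes Mad2l1 off Cdc20, and Cdc25c, a phosphatase that activates Cdk1. Mad2l1bp had the highest values of all mitotic genes read here, with a window of 1.14 in PHx6F and 1.40 in Spon6F, and 0.27 at most in the other 10 tumors. It lay in called regions of chromosome 17 of 10.9 Mb in PHx6F (mean 0.85) and 5.04 Mb in Spon6F (mean 1.27). Mad2l1 itself read -0.13 in PHx6F and -0.04 in Spon6F. Cdc25c was amplified in PHx2F (0.58), in a called region of 5.18 Mb, and in Spon1M (0.42), in a called region of 0.965 Mb.

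The 5 list genes with the largest group difference were Cdc16, Mad2l2, Incenp, Kif11 and Ect2, all with a higher mean in post-PHx tumors. Cdc16, a subunit of the anaphase-promoting complex, differed by 0.22 (SE 0.11), with PHx3M at 0.73 and amplified. PHx1M (0.28) and PHx4M (0.27) were also above 0, while PHx2F, PHx5M and PHx6F read between -0.03 and 0.06. Mad2l2, a relative of Mad2l1 that acts in DNA repair, differed by 0.21 (SE 0.07), with spontaneous values between -0.41 and -0.01. Incenp, the scaffold of the chromosomal passenger complex that Aurkb belongs to, differed by 0.17 (SE 0.06), and the spindle motor Kif11 by 0.17 (SE 0.06). Both lie on chromosome 19 and were in a deleted region in Spon2M. Deleted runs in that tumor covered most of the chromosome, from chr19:3259856 to chr19:61288400, so both genes share the same broad loss there. Ect2, the exchange factor of cytokinesis, differed by 0.15 (SE 0.11), with PHx4M at 0.63 and the other 11 tumors below 0. The limma adjusted p of these 5 lay between 0.681 and 0.979.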

How the data were processed

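Genomic DNA of 12 tumors was hybridized against matched non-tumor liver on 2-colour mouse arrays, 1 tumor per array, with no dye swap. The deposited log10 ratio of each spot, red (tumor) over green (liver), and its error came from the authors' scanner software (Agilent Feature Extraction 10.5.1.1, per the file headers), as did the deposited signal intensities, which are background-subtracted, detrended and scaled by 1 factor per dye. The build is NCBI36 (mm8) per the file headers.

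From there, control and outlier spots were dropped, the ratios converted to log2, spots of a probe averaged, and each array centred on its autosomal median, which left 41081 to 42160 probes. Of 20524 named and placed genes, 60 with probes in several places were left out. Window means (own probes and 10 on each side) were fitted with limma 3.58.1 (R 4.3.3; lmFit and eBayes, Benjamini-Hochberg over all genes). Regions were called by an error-weighted score modelled on ADM-2 (threshold 6, at least 2 probes, absolute mean log2 ratio of at least 0.4 over a whole piece, whose unbroken runs may fall below it, score divided by the array's own noise), and called runs at most 3 probes apart were joined for the stretches described. Other steps used Python 3.11.15 with SciPy 1.17.1 and numba 0.67.0. The limma fit and the caller were tested on simulated data, where the caller mostly missed shifts below its limit and, on shuffled probes with no shift added, made calls chiefly on the arrays of Spon1M, Spon2M and Spon3F. The members and lists were chosen with earlier results of these data known. The list of other mitotic genes was written from their known roles, and of it the genes called in at least 2 tumors and the 5 with the largest group difference are named. P-values cover the spread between tumors of 12 mice. Precision is limited by the number of tumors and by probe noise. Nested pieces of at least 2 probes, the filter on unbroken runs, window minus chromosome, and the neighbours of Aurkb were added after values had been seen. Alternatives covered window size and summary, background correction, centring, dim probes, slide, sex, pairing, other tests, settings of the region call, and each tumor left out in turn.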

Additional observations from a re-analysis of the deposited data

Results flagged for a closer look

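A tumor stood far from the other 5 of its group in 3 of 18 combinations of member and group, by Dixon's test at the 95% level. They were Bub1 in PHx3M (0.38, the nearest other post-PHx tumor at 0.04), Cdc20 in PHx5M (-0.22, the nearest at -0.03) and Aurka in Spon5F (0.26, the nearest at 0.00). These are window means: the gene's own probes averaged 0.43 for Bub1, -0.30 for Cdc20 and 0.02 for Aurka in the same tumors. Chance gives such a gap in about 1 of 20 groups, and 16.4% of the groups of all genes had one. In PHx5M and Spon5F the chromosome medians were also away from 0, at -0.23 for chromosome 4 and 0.19 for chromosome 2, and in PHx3M the gain began 1.23 Mb before Bub1.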

How the results depend on the processing

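Between the groups no gene passed under any alternative. Against 0, counts left 0 with own probes alone (540 post-PHx, 848 spontaneous), normexp (5 and 797) and sex as a covariate (1190 spontaneous), and leaving out each tumor in turn gave 0 to 607 in spontaneous tumors, the highest without Spon5F. The cause was not tested. Of 252 member differences under alternatives 222 kept their direction, none passed the threshold and 30 had the opposite sign. With slide as a block and on the shared slide alone, Aurka was -0.127, Tpx2 -0.164, Bub1 -0.118, Cdc20 -0.0621, Ccnb1 -0.00873, Plk1 0.0526 and Ttk 0.0582. With own probes alone Bub1b was 0.0412 and Cdc20 -0.0134, with mode centring Bub1b was 0.00273, and without dim probes 0.00653. Relative to the chromosome median Plk1 was 0.00262, Ccnb1 -0.00547 and Mad2l1 -0.0173. Leaving out each tumor gave 0.0562 to 0.190 for Aurka, 0.00524 to 0.136 for Tpx2 (lowest without PHx4M in both), 0.0512 to 0.151 for Cdc20 (lowest without Spon2M), -0.00753 to 0.106 for Bub1, -0.0310 to 0.0373 for Bub1b, -0.00396 to 0.0414 for Mad2l1 and -0.0311 to 0.0198 for Plk1. With tumor number as a replicate block 0 genes passed. Same-numbered tumors came from different mice, hepatectomized and untreated, so the numbers do not pair them. Their deviations were correlated at -0.17 to 0.55, highest for PHx6F and Spon6F. Amplified pairs were 6 in all (5 post-PHx) with mode centring, removal of dim probes (well above background only), a score threshold of 10, a filter of 0.25, or nested pieces of at least 2 probes, and 1 to 3 when each tumor was left out (1 without PHx4M). Spontaneous amplified pairs were 0 with a filter of 0.6, the window mean in place of a region or the filter on the mean of each unbroken run. Deleted pairs were 2 (both spontaneous) with a filter of 0.25 and 1 (spontaneous) with the window mean. Other mitotic genes in called regions were 30 with a filter of 0.25 and 6 with 0.6, against 18.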
